A study of Mus musculus with 9 samples.

Results

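Plasminogen activators and the proteins that hold or block them were followed in stromal cells of mouse fat and muscle through 5 genes of the 26214 in the table: Plau and Plat, which encode the activators, Plaur, which encodes the urokinase receptor, and Serpine2 and Serpinb2, which encode inhibitors of the activators. The genes were chosen by name for their roles, with earlier results of these data known. The samples were bulk RNA sequencing libraries of cells isolated on day 1 after an injection into the quadriceps of male C57Bl/6 J mice aged 8 to 12 weeks. Adipose stromal cells (ASCs, 3 libraries) came from subcutaneous adipose tissue of mice given NaCl, fibro-adipogenic progenitors (FAPs, 2 libraries) from the quadriceps after NaCl, and injured FAPs (3 libraries) from the quadriceps after 50% glycerol in saline. Cells bearing CD45 or CD31 had been removed from these preparations with magnetic beads before selection for Sca-1, and the 1 CD31+CD45+ library holds such cells from glycerol-injured quadriceps. The study describes triplicates from pooled cells of 3 animals without saying whether each library had its own pool. The table holds 2 FAP libraries, and every comparison with FAPs rests on those 2. The labels do not say that the libraries are separate animals, so the p-values below measure only the spread between these samples.

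Each value is a normalized read count, the reads of a gene divided by a size factor of its library. The libraries held 27481573, 27349184 and 27402102 reads on genes (ASC 1 to 3), 24052508 and 24164447 (FAP 1 and 2), 26968235, 26698572 and 27028114 (injured FAP 1 to 3) and 13091077 (CD31+CD45+). A single read corresponds to a value between 0.763 and 1.57, so all members except Serpinb2 were measured far above the counting limit of 3 reads in the 9 libraries. Intervals on single values cover counting error only. A gene is called higher or lower when its adjusted p is under 0.05 and its log2 fold change passes 0.58 either way, in 1 limma fit of the 8 ASC, FAP and injured FAP libraries over 13601 genes. Fold changes were fitted on log2(value + 1), which understates those of genes with low values. Other scalings of the libraries were quantile normalization, a common 75th percentile and library totals (all libraries brought to the same number of reads), and they are named where they change a direction or a call that the text gives for a gene.

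ASC 1 and injured FAP 2 stood apart from their groups. Across genes, the variance between ASC 1 and the other ASC libraries was 69.4 and 50.96 times counting noise, against 33.5 between ASC 2 and ASC 3, 17.1 between the FAP libraries and 10.9 to 16.8 among injured FAP libraries. ASC 1 also had the highest Plau, Plaur and Plat values of its group. In injured FAP 2 the 8 leukocyte markers summed to 1375, compared with 269.9 and 265 in injured FAP 1 and 3. Member results that change without either library are given with the value found when it is left out.

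The cell labels were compared with marker genes. All 10 stromal markers, Pdgfra, Ly6a and Cd34 among them, were detected in each ASC, FAP and injured FAP library, with Col1a1 the most abundant except in injured FAP 3, where it was Col3a1, and their summed values were 2786138 to 3200349 in ASCs, 1579676 to 1712231 in FAPs, 700188 to 772938 in injured FAPs and 72229.5 in CD31+CD45+ cells. The sum was thus lowest in the CD31+CD45+ library, but not each marker: Cd34 was at 17085 there and at 10736 to 11933 in injured FAPs, and Ly6a at 17672 there and at 16542 and 10823 in FAPs. Leukocyte markers summed to 55.3, 52.1 and 25.1 in ASCs, 0 in both FAP libraries, where 8 of 8 were at 0, and 7779.6 in CD31+CD45+ cells, with Laptm5 the most abundant there and Itgb2, Itgb2 and Fcer1g in ASC 1 to 3. The CD31+CD45+ library held all 10 endothelial markers at a sum of 330269, led by Cdh5 at 98652. Endothelial sums were 6597, 5207 and 6989.9 in ASCs and 6962 and 4763 in FAPs, mostly or most abundantly Tek, and 1904, 2041 and 1629 in injured FAPs, where Cdh5 led. In ASCs Tek made up most of the sum. Apart from Tek, Kdr and Cldn5, each endothelial marker was lower in every ASC library than in every injured FAP library. Cldn5 was at 17.1 in ASC 1 and 15.3 in injured FAP 3. In percent of the CD31+CD45+ sum, the endothelial signal of the stromal libraries lay between 0.493% and 2.12%. Emcn, Cldn5 and Vwf were at 0 in both FAP libraries and Pecam1 also in FAP 2. Several defining endothelial genes and all 8 leukocyte genes were therefore at 0 in FAP libraries that still held other endothelial genes such as Tek. The sources do not say whether these zeros are as counted or were set in the 2 columns, and FAP marker sums, FAP shares of Plaur scaled by markers and calls of genes at 0 in both FAP libraries carry this limit. Monocyte and macrophage markers summed to 664, 527 and 557 in ASCs, 270.1 and 499.6 in FAPs (7 of 10 at 0, Cd68 carrying most of the sum), 723, 3328 and 648 in injured FAPs and 34226 in CD31+CD45+ cells. Smooth muscle and pericyte markers were highest among the stromal groups in FAPs, at 21379 and 19002, with 9812, 9341 and 9792 in injured FAPs, 1353, 819 and 913 in ASCs and 86615 in CD31+CD45+ cells, and tenocyte markers, mainly Tnmd, summed to 4632 and 5439, 2172, 2021 and 2072, 130.4, 157 and 211 and 455 in the same order.

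Other marker lists gave the following sums. Neutrophil markers came to 11614 to 15317 in ASCs, 218 to 297 in FAPs, 166 to 267 in injured FAPs and 855 in CD31+CD45+ cells, and in the stromal groups the sum was mostly Il1r2. Platelet markers, led by Itga2b in the stromal groups, were at 375 to 669 in ASCs, 300.5 to 389 in FAPs, 273 to 465 in injured FAPs and 670.1 in CD31+CD45+ cells. ASCs were thus set apart by Il1r2, with the other 7 neutrophil markers near 0 in them. Skeletal muscle fibre markers were at 105 to 151 in ASCs, 674 to 845 in FAPs, 207 to 262 in injured FAPs and 2850.1 in CD31+CD45+ cells. Satellite cell markers summed to 2.51 to 5.66 in ASCs, 65.6 to 128 in FAPs, 35.8 to 50.2 in injured FAPs and 491 in CD31+CD45+ cells, with Pax7 at 0 in all 3 ASC libraries. Both kinds of muscle cell marker were higher in FAPs than in ASCs. Mesothelial markers came to 56.6 to 349 in ASCs, 49.4 to 63.03 in FAPs, 61.2 to 81.6 in injured FAPs and 21.97 in CD31+CD45+ cells, the highest being Krt19 in ASC 1. Adipocyte markers summed to 96.3 to 113 in ASCs, 15.2 to 21.6 in FAPs, 1.53 to 6.97 in injured FAPs and 14.1 in CD31+CD45+ cells. The adipocyte list was at low values in all 9 libraries and highest in ASCs. In bulk RNA, fewer cells of a type and less RNA per cell cannot be told apart.

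Plasminogen activators are secreted serine proteases that cut the inactive plasminogen of blood and tissue fluid into plasmin, which dissolves fibrin, cleaves matrix proteins and frees or processes growth factors. Urokinase acts mainly at cell surfaces, where a receptor anchored in the membrane holds it, whereas the tissue-type activator works best on fibrin, and serpins end the reaction by binding the proteases irreversibly. In skeletal muscle, mice lacking urokinase clear fibrin and rebuild fibres poorly after damage.

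**Figure D1:**
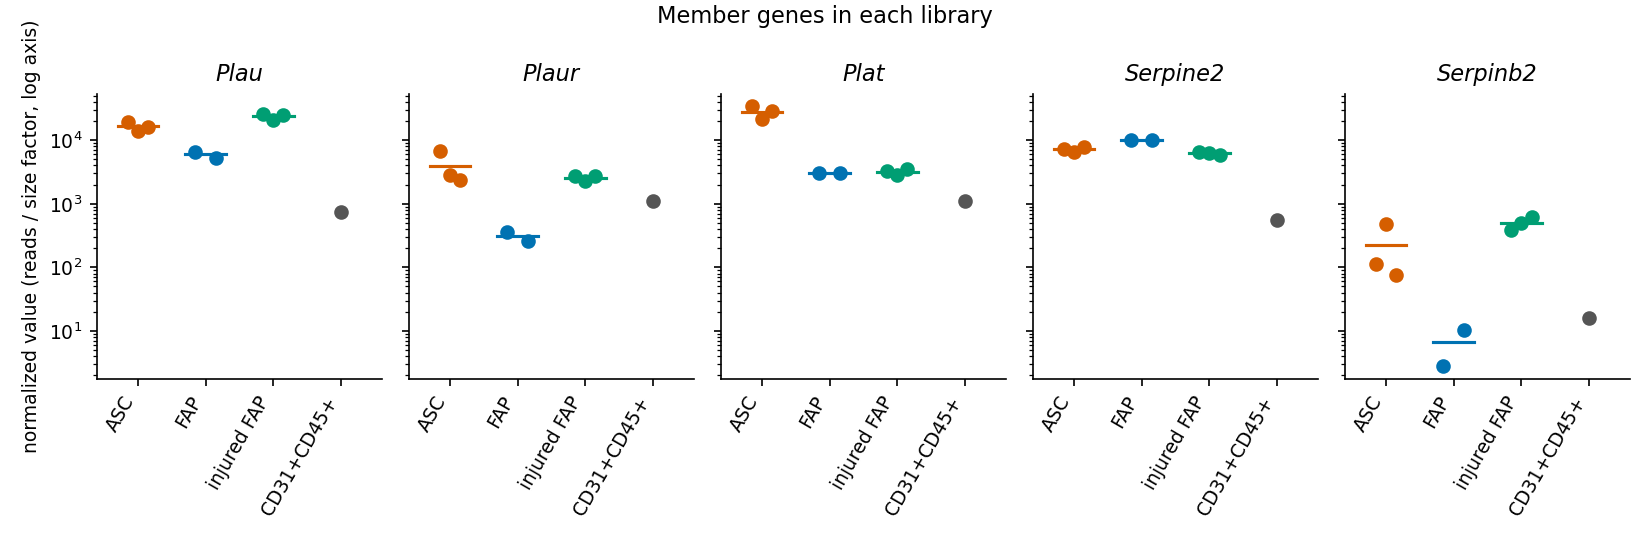
Normalized values (reads divided by the size factor of the library, log axis) of the 5 members in each library, with a horizontal line at the mean of each group with more than 1 library. For Plau and Plaur both FAP libraries lie below every ASC and injured FAP library, Plat separates the ASC libraries from FAP and injured FAP, Serpine2 is highest in FAP, and Serpinb2 is lowest in FAP at 2.85 and 10.3.

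Plau encodes urokinase (GRCm38, chr14:20836660-20843385, forward strand; ENSMUSG00000021822.3). Its values were 19519, 14192 and 16275 in ASC 1 to 3, 6639 and 5338 in FAP 1 and 2, 26029.8, 20960.3 and 25019 in injured FAP 1 to 3 and 742 in the CD31+CD45+ library. The FAP libraries were the lowest of the stromal libraries and the injured FAP libraries the highest, with no overlap between any of these groups. ASCs were compared with FAPs to show how stromal cells of fat differ from those of uninjured muscle, and their mean was 2.78 times that of FAPs (log2 fold change 1.47, SE 0.16, limma with Benjamini-Hochberg adjusted p = 2.95e-05), and all 3 ASC libraries were above both FAP libraries. This estimate was 0.76 after quantile normalization and 0.90 with library totals. Injured FAPs were compared with FAPs to show the response on day 1 after glycerol, and Plau rose to 4.01 times the FAP mean (log2 fold change 2.01, SE 0.16, limma with Benjamini-Hochberg adjusted p = 3.34e-06), again in 3 of 3 libraries. The difference between injured FAPs and ASCs did not pass the fold threshold (log2 fold change 0.53, SE 0.14, limma with Benjamini-Hochberg adjusted p = 0.00751), although each injured FAP library was above each ASC library. It passed without ASC 1 (log2 fold change 0.65) or without injured FAP 2 (0.63), and also after quantile normalization (1.29), with a common 75th percentile (0.65), with library totals (1.23) and with edgeR on the recovered reads (0.62).

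Plat encodes the tissue-type activator (GRCm38, chr8:22757727-22782844, forward strand; ENSMUSG00000031538.6). Values were 33949.6, 21914 and 28861 in ASC 1 to 3, 3089 and 3086 in FAP 1 and 2, 3258, 2834 and 3489 in injured FAP 1 to 3 and 1099 in CD31+CD45+ cells. Each ASC library stood far above all 5 FAP and injured FAP libraries, and the values of the FAP libraries fell inside the range of the injured FAP libraries. The ASC mean was 9.15 times the FAP mean (log2 fold change 3.17, SE 0.17, limma with Benjamini-Hochberg adjusted p = 2.65e-07) and 8.84 times the injured FAP mean (injured FAPs against ASCs: log2 fold change -3.13, SE 0.15, limma with Benjamini-Hochberg adjusted p = 7.84e-08). These estimates were 2.45 and -2.54 after quantile normalization and 2.60 and -2.43 with library totals. After injury Plat was not called, with an interval inside 0.58 either way (log2 fold change 0.043, 95% interval -0.33 to 0.41, limma with Benjamini-Hochberg adjusted p = 0.831); the sign of this estimate changes with the scaling (-0.095 after quantile normalization, -0.052 with a common 75th percentile) and without injured FAP 3 (-0.023). Both activator genes were thus higher in ASCs than in FAPs, while after injury Plau passed the test and Plat did not, a contrast between the genes that was not itself tested.

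The calls of all members can be set against those of the whole table. Of the 5 members, 4 were called higher and 0 lower in ASCs against FAPs, where 23.4% of the 13601 genes were called higher and 23.8% lower. In injured FAPs against FAPs, 3 members were called higher and 1 lower, beside 24.9% and 27.7% of all genes. In injured FAPs against ASCs, 1 was called higher and 1 lower, beside 25.0% and 25.8%. These comparisons share libraries pairwise, so their counts are not independent. The split depended on the scaling for Serpine2 and Plau: in ASCs against FAPs it was 4 higher and 1 lower with library totals (all genes 11.7% and 46.5%) as well as with quantile normalization (all genes 22.4% and 22.1%) and a common 75th percentile (all genes 18.0% and 30.5%), in injured FAPs against FAPs 3 higher and 0 lower with library totals (all genes 29.2% and 23.9%), and in injured FAPs against ASCs 2 higher and 1 lower with each of the 3 (all genes 54.2% and 12.5% with library totals, all genes 25.2% and 25.0% after quantile normalization and all genes 29.2% and 22.9% with a common 75th percentile).

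**Figure D2:**
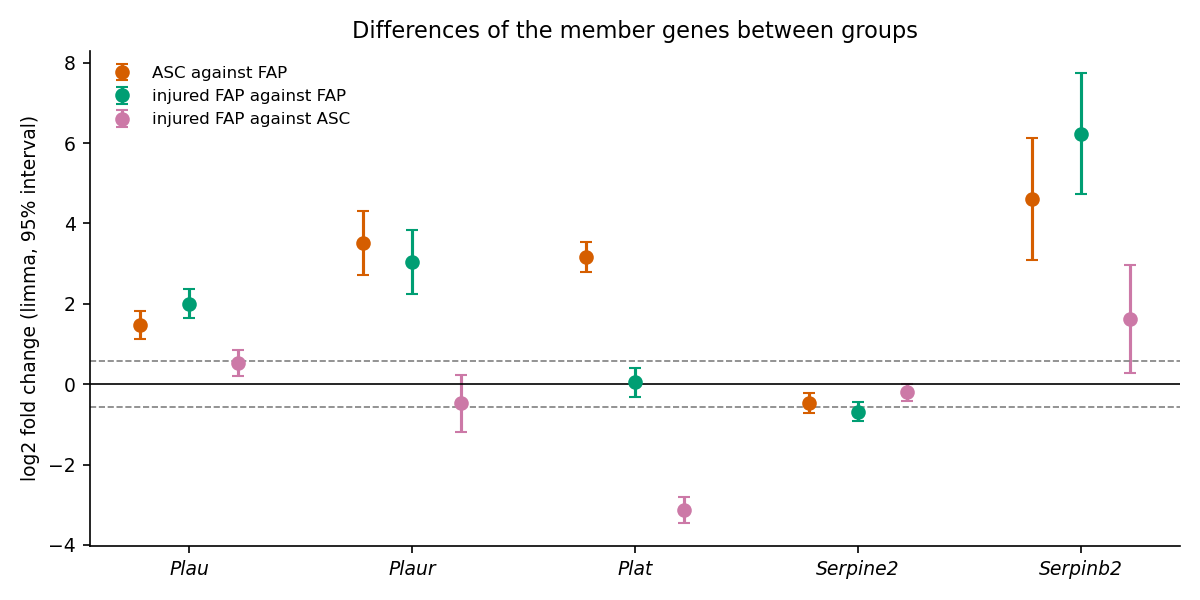
Log2 fold changes of the 5 members in the 3 comparisons (points, limma) with 95% intervals (bars); dashed lines mark 0.58 either way and the solid line 0. Plau, Plaur and Serpinb2 lie above the upper dashed line in both comparisons with FAPs, Plat only in ASCs against FAPs (3.17), and Serpine2 lies below 0 in all 3 comparisons with the deposited scaling but above 0 in injured FAPs against ASCs with quantile normalization (0.25) or library totals (0.49).

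Plaur encodes the urokinase receptor, which concentrates the protease on the cell surface (GRCm38, chr7:24462484-24475968, forward strand; ENSMUSG00000046223.10). Its values were 6699, 2830.4 and 2358 in ASC 1 to 3, 365 and 262 in FAP 1 and 2, 2708, 2267 and 2741 in injured FAP 1 to 3 and 1092 in the CD31+CD45+ library. Both FAP libraries were below every other library, ASC 1 was 2.84 times ASC 3, and the ASC range enclosed the injured FAP values except that of injured FAP 2, which was below it. The mean in ASCs was 12.6 times the FAP mean (log2 fold change 3.51, SE 0.36, limma with Benjamini-Hochberg adjusted p = 1.79e-05), and without ASC 1 the ASC mean was 2594 and the log2 fold change 3.06. Plaur rose to 8.20 times the FAP mean in injured FAPs (log2 fold change 3.05, SE 0.36, limma with Benjamini-Hochberg adjusted p = 3.89e-05), in 3 of 3 libraries. Injured FAPs and ASCs did not differ past the test (log2 fold change -0.47, 95% interval -1.18 to 0.24, limma with Benjamini-Hochberg adjusted p = 0.215), and that estimate was -0.012 without ASC 1 and 0.23 with library totals.

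Leukocytes and endothelial cells express Plaur, so their markers were set beside it. In injured FAP 2, where leukocyte and monocyte and macrophage markers were highest of the stromal libraries (sums of 1375 and 3328), Plaur was the lowest of its group. Scaled by the leukocyte markers, the Plaur of the CD31+CD45+ library would amount to 37.9, 193 and 37.3 in injured FAP 1 to 3, or 1.40%, 8.52% and 1.36% of the values measured there. Scaled by the endothelial markers it would amount to 23.03 and 15.8 in FAP 1 and 2, or 6.31% and 6.0018%. In the ASC libraries both shares were under 1% of Plaur. These shares take the CD31+CD45+ library as the source of marker reads and Plaur reads alike, which was not tested.

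**Figure D3:**
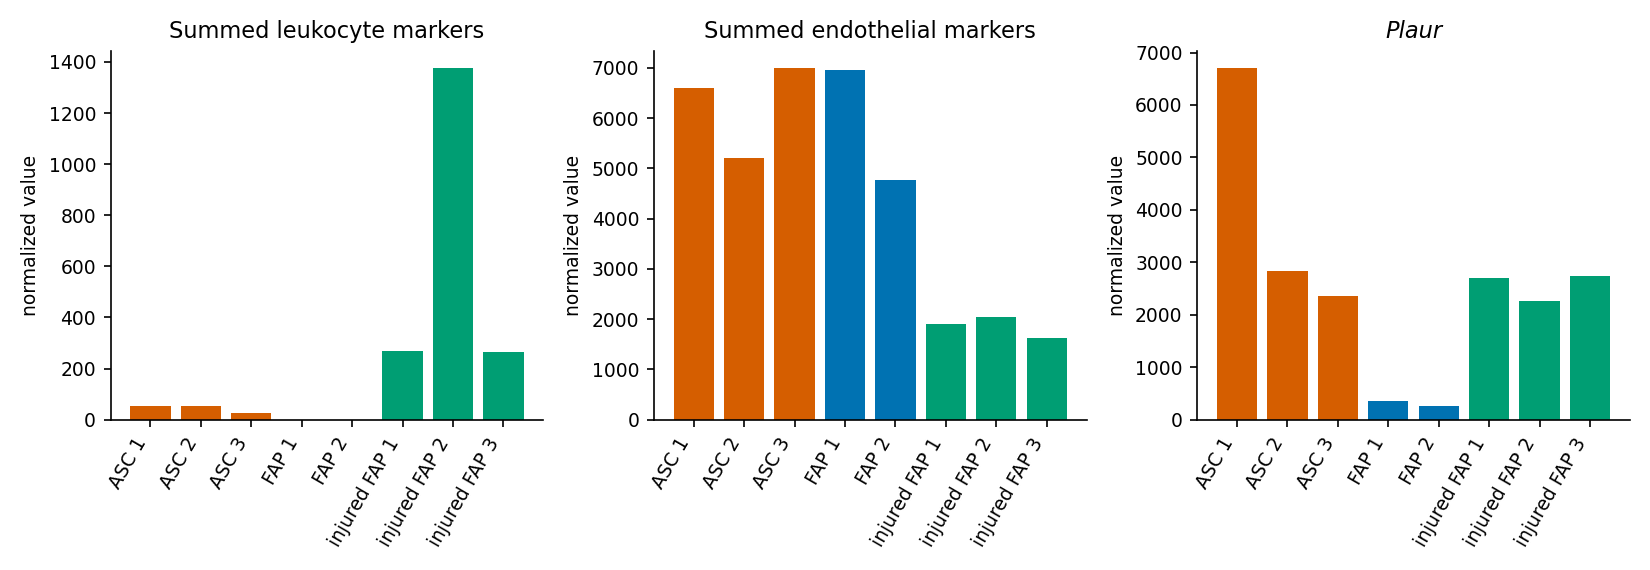
Summed normalized values of 8 leukocyte markers (left) and 10 endothelial markers (middle) and the value of Plaur (right), 1 bar per ASC, FAP and injured FAP library. The leukocyte bar is tallest for injured FAP 2 and absent for both FAP libraries, endothelial bars are lower in injured FAPs than in ASCs and FAPs, and the Plaur bars of the FAP libraries are the shortest. The endothelial bars of ASCs are mostly Tek. Without Tek, the bars of ASCs would be lower than those of injured FAPs.

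Serpine2 encodes protease nexin-1, a secreted serpin that inhibits thrombin, urokinase and the tissue-type activator (GRCm38, chr1:79794197-79861180, reverse strand; ENSMUSG00000026249.10). Its values were 7355, 6460.4 and 7914 in ASC 1 to 3, 10103 and 9939 in FAP 1 and 2, 6636, 6305 and 5847 in injured FAP 1 to 3 and 559 in CD31+CD45+ cells. The FAP libraries were the highest and did not overlap with the other groups, while ASCs and injured FAPs overlapped. Serpine2 fell in injured FAPs to 0.625 times the FAP mean (log2 fold change -0.68, SE 0.11, limma with Benjamini-Hochberg adjusted p = 3.61e-04), a call lost with library totals (-0.55). The ASC mean was 0.723 times the FAP mean without passing the fold threshold (log2 fold change -0.47, SE 0.11, limma with Benjamini-Hochberg adjusted p = 0.0040). That difference passed it after quantile normalization (-1.08), with a common 75th percentile (-0.68) and with library totals (-1.04). Between injured FAPs and ASCs it was not called (log2 fold change -0.21, SE 0.10, limma with Benjamini-Hochberg adjusted p = 0.0879), with a positive sign after quantile normalization (0.25) and with library totals (0.49). Smooth muscle and pericyte markers and tenocyte markers were among the marker lists that were also highest in FAPs of the stromal groups, and the part of such cells in the Serpine2 values was not tested.

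Serpinb2 encodes a serpin that inhibits both activators and is largely kept inside the cell (GRCm38, chr1:107511423-107535478, forward strand; ENSMUSG00000062345.10). Its values were 112, 475 and 76.6 in ASC 1 to 3, 2.85 and 10.3 in FAP 1 and 2, 384, 503 and 625 in injured FAP 1 to 3 and 15.7 in CD31+CD45+ cells. FAP 1 sat at the counting limit of 3 reads and FAP 2 had 11. ASC 2 was 6.20 times ASC 3 and lay inside the injured FAP range. By value the FAP libraries were below every other library. However, the counting intervals of FAP 1 (0.588 to 8.34) and FAP 2 (5.17 to 18.5) overlapped that of the CD31+CD45+ library (7.53 to 28.9). In the 2 FAP libraries together, 14 reads gave a level of 6.62 (exact Poisson 95% interval 3.62 to 11.1), so the ratio to FAPs was 34.995 for ASCs (20.9 to 64.01) and 76.3 for injured FAPs (45.5 to 139.6), with counting error of FAPs only. Serpinb2 rose in injured FAPs (log2 fold change 6.23, SE 0.68, limma with Benjamini-Hochberg adjusted p = 2.36e-05) and was higher in ASCs than in FAPs (log2 fold change 4.61, SE 0.68, limma with Benjamini-Hochberg adjusted p = 2.25e-04), in 3 of 3 libraries each. Left-out libraries moved both: the injured FAP estimate was 5.45 without FAP 1 and 7.01 without FAP 2, and the ASC estimate 3.83, 5.38 and 3.82 without FAP 1, FAP 2 and ASC 2. With 8 instead of 1 added to the values they were 5.15 and 3.59.

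Between injured FAPs and ASCs, Serpinb2 was called higher (log2 fold change 1.62, SE 0.61, limma with Benjamini-Hochberg adjusted p = 0.0361) although the groups overlapped. Without ASC 2 the ASC mean was 94.3 instead of 221 and the log2 fold change 2.40. The call was lost without ASC 1 (1.37), ASC 3 (1.10), injured FAP 1 (1.80), injured FAP 2 (1.61) or injured FAP 3 (1.45), and with edgeR (1.26) or DESeq2 (1.20) on the recovered reads or no filter on low values (1.62). Serpinb2 overlaps the polymorphic pseudogene Serpinb10 on the same strand over 291 bases of exon. Serpinb10 itself had values of 0 in the 3 ASC libraries, 6.66 and 1.88 in FAPs, 6.28, 7.75 and 6.10 in injured FAPs and 25.1 in CD31+CD45+ cells.

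Plaur and Serpinb2 were both called higher in ASCs and in injured FAPs than in FAPs, and the 250 bases before their starts are shown for what they hold. RefSeq promoter entries of build GRCm38.p6 matched 3 of the 5 members (Plaur, Serpinb2 and Serpine2). The windows are chr7:24462233-24462482 on the forward strand for Plaur and chr1:107511173-107511422 on the forward strand for Serpinb2, written 5′ to 3′ with matches to TGANTCA (the AP-1 motif) and TATAAA (the TATA box) in capitals.
Plaur: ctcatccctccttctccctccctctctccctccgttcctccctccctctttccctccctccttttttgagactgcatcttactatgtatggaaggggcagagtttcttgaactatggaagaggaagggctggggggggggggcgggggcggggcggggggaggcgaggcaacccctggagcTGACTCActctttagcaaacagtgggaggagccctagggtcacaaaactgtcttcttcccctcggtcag
Serpinb2: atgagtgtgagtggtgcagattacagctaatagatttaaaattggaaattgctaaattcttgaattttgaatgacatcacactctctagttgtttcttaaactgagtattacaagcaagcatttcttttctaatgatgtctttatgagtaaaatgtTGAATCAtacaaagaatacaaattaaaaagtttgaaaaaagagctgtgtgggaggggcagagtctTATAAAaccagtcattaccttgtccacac
The Plaur window holds TGACTCA with its first base 69 bases upstream of the start and no TATAAA. It also has 3 matches to GGGCGG (the GC box), with first bases 111, 105 and 100 bases upstream, the last 2 sharing a base. The Serpinb2 window holds TGAATCA at 94 bases and TATAAA at 29 bases upstream and no GGGCGG. A second RefSeq entry of Serpinb2 has its start at 107511510, from which the same matches lie 181 and 116 bases upstream, and its window holds annotated Serpinb2 exon. The Serpine2 window (chr1:79858666-79858915, reverse strand) lies inside the gene as annotated by GENCODE and holds exon of it, since the RefSeq start is downstream of the outermost one. It had 6 matches to GGGCGG, some of them overlapping, none to TGANTCA or TATAAA, and a GC content of 78.8% against a median of 52.4% over all windows. Both strands were searched. Of 32851 windows of this length, 6.75% held TGANTCA, 12.4% TATAAA and 32.7% GGGCGG. TGACGTCA (the CRE motif, 1.55% of windows) and the NF-kB motif (7.25%) had no match in the member windows. The AP-1 and TATA letters were capitalized after the sequences had been seen, and a match describes letters only.

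Levels of different genes were compared per length, in RPKM, the reads per kilobase of merged exons scaled to the reads on genes of the library. In ASCs the group means were 207 for Plau, 133 for Plat, 43.9 for Plaur, 25.8 for Serpine2 and 2.93 for Serpinb2. Plaur and Serpine2 were not separated there, since Plaur per library was 70.7, 34.9 and 26.2 and Serpine2 24.5, 25.2 and 27.8, and without ASC 1 the Plaur mean was 30.6. The Serpinb2 mean of ASCs was 1.13 without ASC 2. In FAPs the order was Plau (111), Serpine2 (53.03), Plat (21.7), Plaur (5.26) and Serpinb2 (0.123), each step larger than the spread of the libraries. Serpinb2 was at 0.053 in FAP 1 and 0.194 in FAP 2. Injured FAPs had Plau at 487, Plaur at 47.2, Serpine2 at 36.3, Plat at 24.6 and Serpinb2 at 10.3, and no neighbours in that order overlapped. The receptor gene thus moved from below Serpine2 and Plat in FAPs to above both in injured FAPs on this scale. The order of some genes depends on the length used: per kilobase of the longest transcript Serpine2 was above Plau in FAPs (129.5 and 112) and above Plaur in injured FAPs (88.6 and 61.5). The merged exons of Serpine2 span 8287 bases and its longest transcript 3393.

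The balance of the activators differed between the groups, within muscle as well as between fat and muscle, a difference that was not tested. Plat made up 39.7, 36.9 and 40.2% of the summed level per length of Plau and Plat in ASC 1 to 3, 15.001 and 17.98% in FAP 1 and 2, 4.53, 4.88 and 5.02% in injured FAP 1 to 3 and 35.95% in CD31+CD45+ cells. Groups of stromal libraries did not overlap in this share, ASCs being highest and injured FAPs lowest. With longest transcripts the shares were 50.2, 47.2 and 50.7%, 21.2 and 25.1%, 6.76, 7.27 and 7.48% and 46.2%, so with these lengths the activators were nearly level in ASCs (Plat the higher in ASC 1 and ASC 3, Plau in ASC 2), whereas Plau was above Plat in FAPs and injured FAPs with both lengths. The summed level of both activators averaged 339.8 ± 35.9 (SD, n = 3) in ASCs, 133 ± 16.5 (n = 2) in FAPs, 511 ± 53.3 (n = 3) in injured FAPs and was 23.8 in CD31+CD45+ cells. RPKM is scaled to library totals, with which the median log2 fold change of all genes was 0.71 in injured FAPs against ASCs. With the deposited scaling, the summed values per length of ASCs and injured FAPs overlapped and the ASC mean was the higher. The order of these groups in the sum thus depends on the scaling, while FAPs were lowest of the stromal groups with both.

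**Figure D4:**
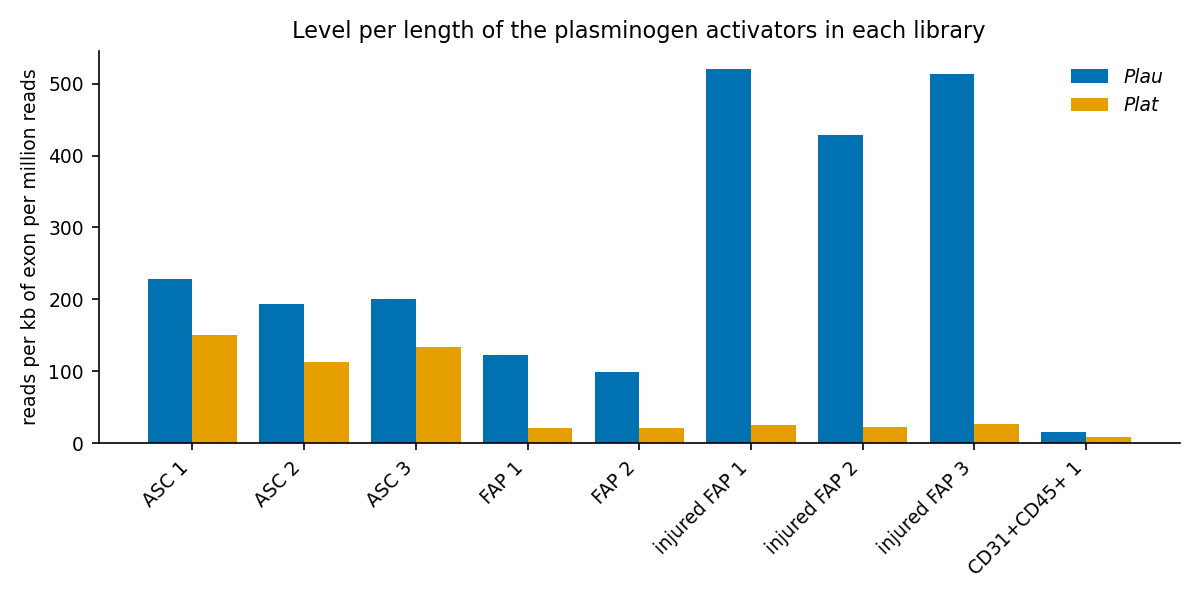
Level per length (RPKM, over merged exons) of Plau and Plat in each of the 9 libraries. Plau bars are tallest in injured FAPs (group mean 487), Plat bars in ASCs (133), and both are shortest in the CD31+CD45+ library.

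Urokinase and its receptor, a protease and its docking site, stood in different proportions. Plau over Plaur per length was 3.22, 5.54 and 7.63 in ASC 1 to 3, 20.1 and 22.5 in FAP 1 and 2, 10.6, 10.2 and 10.1 in injured FAP 1 to 3 and 0.751 in CD31+CD45+ cells. FAPs had the highest ratios, ASCs the lowest of the stromal groups with a wide spread, and the CD31+CD45+ library was the only 1 of the 9 with more receptor than urokinase RNA on this scale. Activators over Serpine2 per length averaged 13.2 ± 1.91 (SD, n = 3) in ASCs, 2.50 ± 0.293 (n = 2) in FAPs and 14.1 ± 1.78 (n = 3) in injured FAPs, so FAPs of uninjured muscle had the least activator RNA per Serpine2 RNA of the 3 groups. With longest transcripts these means were 6.60, 1.12 and 5.9963. Ratios within a library do not depend on the size factor, but their size depends on the lengths.

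The CD31+CD45+ library, from cells of injured muscle with endothelial and blood cell markers, is a single sample, so its values have exact Poisson 95% intervals and no test. Plau was at 742 (473 reads, 677 to 812), Serpine2 at 559 (356 reads, 502 to 619.9) and Serpinb2 at 15.7 (10 reads, 7.53 to 28.9). These 3 of the 5 members were at least 4-fold below every injured FAP library, where 12.4% of all genes were, and 0 of 5 were at least 4-fold above, where 10.1% were. The lowest injured FAP library exceeded it 28.2 times for Plau, 10.5 times for Serpine2 and 24.5 times for Serpinb2. Plat, at 1099 (700 reads, 1019 to 1183), and Plaur, at 1092 (696 reads, 1013 to 1177), were nearer, the lowest injured FAP library being 2.58 and 2.08 times higher. Plaur in this library was 2.99 times the highest FAP library. Both inhibitor genes and urokinase were therefore at far lower values in the cells removed from the stromal preparation than in the injured stromal cells, and the receptor was the member closest between them.

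The genes whose log2 values ran most like each member across the 8 stromal libraries were found among 10448 genes by Pearson r, a description of libraries that fall into 3 groups and without a p. For Plau they were Rps6-ps4 (r = 0.997), Nsmce2 (r = 0.995) and Ptpn11 (r = 0.995), of which Rps6-ps4 is a pseudogene whose reads may belong to its parent gene. Plaur ran with Cemip2 (r = 0.998), Rrp9 (r = 0.997) and Nol10 (r = 0.997). The genes nearest to Plat were Fnip1 (r = 0.998), Hspb8 (r = 0.998) and Ccdc71l (r = 0.998). Serpine2 was matched by Aktip (r = 0.991), Eya2 (r = 0.990) and Phactr2 (r = 0.989), and Serpinb2 by Yars2 (r = 0.992), Xpnpep1 (r = 0.985) and Slirp (r = 0.984). With only 3 groups many genes share such patterns.

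Other genes of the plasmin system numbered 35, of which 23 passed the filter on low values. That filter is a mean over the 8 libraries, so a gene can pass through the 1 group where it is high. St14 passed through ASCs (mean 31.4, with 2.83 in FAPs and 5.40 in injured FAPs) and counts as higher in ASCs than FAPs. Itgam passed through injured FAPs (mean 94.8, with 1.76 in ASCs and 7.09 in FAPs) and counts as higher there than in ASCs. Plg, the gene of plasminogen itself, had 1 read in ASC 2 (a value of 1.13) and 0 in the other 8 libraries. Plasminogen is known as a protein made mainly by the liver. In ASCs against FAPs 8 of the 23 were called higher and 2 lower (median log2 fold change 0.24; all genes 23.4% and 23.8%, median 0.0049), a split that became 5 higher and 5 lower after quantile normalization (all genes 22.4% and 22.1%) and 4 higher and 7 lower with library totals (all genes 11.7% and 46.5%). In injured FAPs against FAPs 4 were higher and 8 lower (median -0.27; all genes 24.9% and 27.7%, median -0.051), or 5 higher and 6 lower with library totals (all genes 29.2% and 23.9%). In injured FAPs against ASCs 5 were higher and 11 lower (median -0.64; all genes 25.0% and 25.8%, median 0.021), which turned to 8 higher and 9 lower after quantile normalization (all genes 25.2% and 25.0%) and 9 higher and 5 lower with library totals (all genes 54.2% and 12.5%). The 3 medians of the list were -0.0042, -0.20 and -0.26 after quantile normalization, 0.03, -0.36 and -0.52 with a common 75th percentile and -0.33, -0.14 and 0.01 with library totals.

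Of 5 tested genes of proteins that dock plasminogen on cells, 1 was called higher and 1 lower after injury, beside 24.9% and 27.7% of all genes. Eno1, an enolase that also binds plasminogen at the surface, had values of 2147, 3153 and 1995 in ASCs, 2852 and 2790.4 in FAPs and 9908, 9955 and 9713 in injured FAPs. It rose after injury (log2 fold change 1.80) and was the 1 docking gene called higher there with the deposited scaling. Clec3b, which encodes the plasminogen-binding tetranectin, went the other way, with 36272, 27341 and 33527 in ASCs, 10437 and 11726 in FAPs and 1404, 1339 and 1576 in injured FAPs. It was higher in ASCs than in FAPs (1.54) and fell after injury (-2.94). S100a10, the partner of annexin II in binding plasminogen, was higher in ASCs than FAPs (0.69), a call lost after quantile normalization (0.0084), with a common 75th percentile (0.48) and with library totals (0.12). Anxa2 and Plgrkt, further receptors, were not called in any of the 3 comparisons with the deposited scaling, but Anxa2 was called higher with quantile normalization and library totals after injury (0.61 and 0.71, against 0.577) and in injured FAPs against ASCs (0.99 and 1.001, against 0.30).

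Clearance of inhibited activators runs through Lrp1 and the very low density lipoprotein receptor, and Vldlr, which encodes the latter, was called in all 3 comparisons. Its values were 3251, 2901 and 3029 in ASCs, 1069.8 and 1069.7 in FAPs and 364, 353 and 387 in injured FAPs, with no overlap between groups. It was higher in ASCs (1.51) and fell after injury (-1.54). Lrp1 was not called in either comparison with FAPs (0.49 for ASCs, with the other sign after quantile normalization, -0.0042, and with library totals, -0.074; -0.27 for injured FAPs, 0.23 after quantile normalization) and was lower in injured FAPs than ASCs (-0.76), a sign that turned after quantile normalization (0.24) and a call lost with library totals (-0.062). Lrpap1, the chaperone of these receptors, was lower after injury (-0.68), though not past the threshold with library totals (-0.54). Among partners in adhesion, Itgav, the integrin chain that pairs to bind vitronectin, rose after injury (1.46) from 2593 and 2395 to 6732, 6466 and 7397. Vtn, the vitronectin gene, fell (-1.34) from 1784 and 1663 to 747, 611 and 681. Itgb1 was called higher after injury (0.62) except with a common 75th percentile (0.53), and Itgb3 lower (-0.62) except with library totals (-0.49).

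Of the inhibitors on this list, Serping1, the inhibitor of complement C1 proteases and plasma kallikrein, had values of 262086, 181517 and 213230.3 in ASCs, 102167 and 96528 in FAPs and 29110.2, 28016 and 27296 in injured FAPs. It fell after injury (-1.82) and was higher in ASCs than FAPs (1.12), the latter call being lost with library totals (0.56). Serpinb6a, an intracellular serpin, was higher in ASCs (1.43) and rose after injury (0.79).

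**Figure D5:**
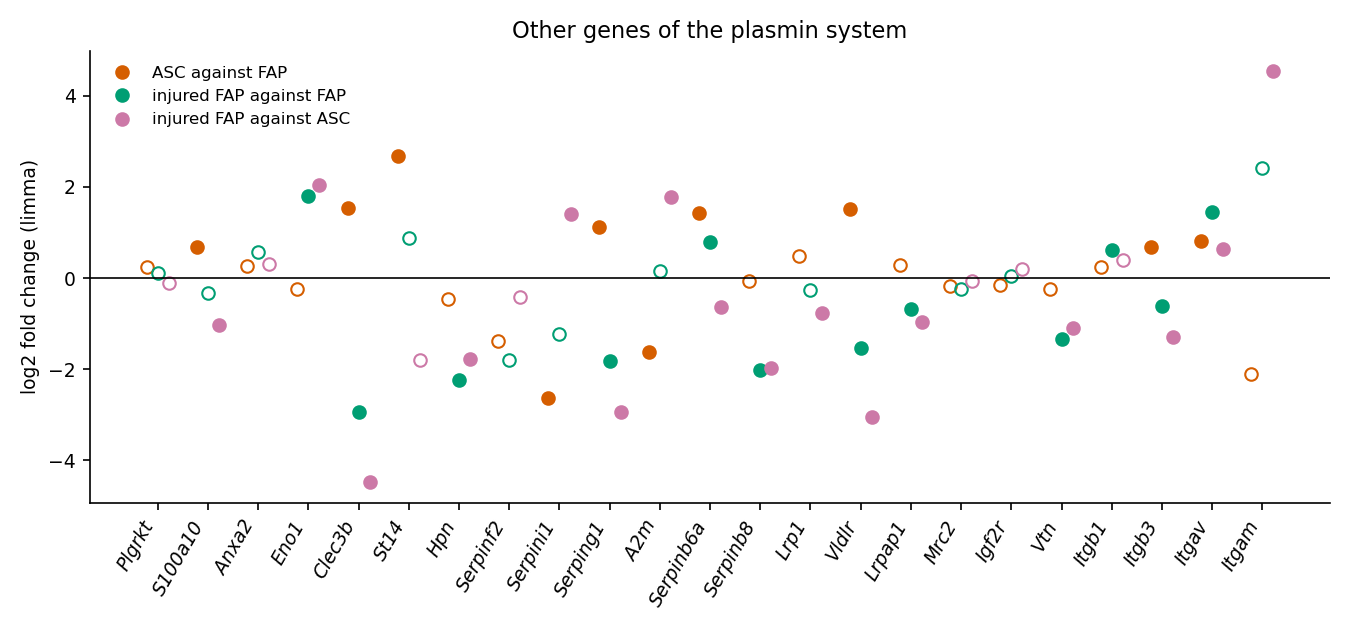
Log2 fold changes (limma) of the 23 tested genes of the plasmin system list in the 3 comparisons; filled points are called and open points are not. After injury Clec3b (-2.94) and Serping1 (-1.82) lie far below 0 and Eno1 (1.80) and Itgav (1.46) above it. Under other scalings the sign of Lrp1 (0.24 after quantile normalization) and Serpinb6a (0.062 with library totals) in injured FAPs against ASCs differs from the one drawn, as do the signs of several open points.

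Coagulation and thrombin genes border on the plasmin system because fibrin is the product of the one and the substrate of the other. Of 23 such genes 12 were tested, and 7 were called higher and 3 lower in ASCs against FAPs (median 1.98), 7 higher and 1 lower in injured FAPs against FAPs (median 0.89), and 3 higher and 6 lower in injured FAPs against ASCs (median -0.37; 4 higher and 5 lower after quantile normalization, all genes 25.2% and 25.0%; 5 higher and 4 lower with library totals, all genes 54.2% and 12.5%). Of all genes, 23.4% and 23.8%, 24.9% and 27.7% and 25.0% and 25.8% were called higher and lower in these comparisons, with medians of 0.0049, -0.051 and 0.021. In both comparisons with FAPs, 2 of those called higher were at 0 in both FAP libraries. Fgg passed the filter on low values only through ASCs, at 178, 0 and 26.4 there. It was at most 0.763 in FAPs and injured FAPs, and it counts as lower in injured FAPs than ASCs. The 3 medians of the list were 1.66, 0.82 and -0.19 after quantile normalization, 1.77, 0.79 and -0.25 with a common 75th percentile and 1.41, 1.02 and 0.33 with library totals. Among the genes called higher in ASCs, Procr, the endothelial protein C receptor, had 53021, 22186 and 27597 in ASCs, 2209 and 2054 in FAPs and 3460.2, 2369.9 and 3279 in injured FAPs (log2 fold change 3.90 for ASCs against FAPs). Thbd, encoding thrombomodulin, had 65859, 34813 and 39707, 8034 and 6269 and 13529, 10588 and 12743 in the same groups (2.66), and it also rose after injury (0.78). Both were highest in ASC 1. Tfpi2, which encodes an inhibitor of plasmin and other proteases, was higher in ASCs (3.70) and rose after injury (1.30), and Tfpi, the inhibitor of tissue factor, did so too (1.30 and 1.15). F3, the tissue factor gene itself, had 6045, 3738 and 3175 in ASCs, 7081 and 5838 in FAPs and 2837, 2661 and 2783 in injured FAPs. It was called lower in ASCs (-0.63) although ASC 1 was above FAP 2, and it fell after injury (-1.22). Pros1, encoding protein S, rose after injury (0.99). Of the receptors cut by proteases, F2r was lower in ASCs than FAPs (-2.79) with no call after injury (0.23), and F2rl1 rose after injury (1.82) from 151 and 237 to 587, 714 and 715.

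Genes of proteins that plasmin or the activators cut numbered 19, with 16 tested. In ASCs against FAPs 12 were called higher and 2 lower (median 1.74), after injury 8 higher and 2 lower (median 0.63), and in injured FAPs against ASCs 5 higher and 9 lower (median -1.30), beside 23.4% and 23.8%, 24.9% and 27.7% and 25.0% and 25.8% of all genes (medians 0.0049, -0.051 and 0.021). In both comparisons with FAPs, 1 of those called higher was at 0 in both FAP libraries. This gene, Mmp13, passed the filter on low values only through injured FAPs (mean 45.1, with 6.59 in ASCs). It also counts as higher in injured FAPs than ASCs. The 3 medians of the list were 1.56, 0.80 and -0.79 after quantile normalization, 1.53, 0.54 and -1.19 with a common 75th percentile and 1.18, 0.76 and -0.60 with library totals. Hgf, a growth factor for muscle stem cells that urokinase activates, had 453, 369 and 358 in ASCs, 156 and 115 in FAPs and 273, 233 and 302 in injured FAPs. It was higher in ASCs (1.54) and rose after injury (0.997), as did Mmp3, a pro-enzyme that plasmin activates (4.39 and 2.28). Ltbp2, which encodes a matrix protein of the family that binds latent TGF-beta, was lower in ASCs (-2.90) and had a large rise after injury (3.78), from 995 and 1553 to 16149.8, 17866 and 17308. Tgfb1 was lower in ASCs (-1.22) and not called after injury (0.27), and Ltbp1 was higher in ASCs (1.74). Growth factors activated by urokinase or the tissue-type activator included Pdgfd, higher in ASCs (1.75) and lower after injury (-1.71), and Pdgfc, higher in ASCs (1.89) and not called after injury (0.19). The matrix gene Fn1 was higher in ASCs (2.43), Thbs1 rose after injury (1.31), and Lamc1 (1.18) and Mmp14 (1.21) were higher in ASCs, calls that both lost after quantile normalization (0.35 and 0.41).

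Of 18 other serpin genes 8 were tested. Serpina3g passed the filter on low values only through ASCs, at 76.4, 72.5 and 56.5 there and at most 2.35 in FAPs and injured FAPs. It counts below as higher in ASCs than FAPs and as lower in injured FAPs than ASCs. In ASCs against FAPs 4 were called higher and 0 lower (median 0.94), after injury 2 higher and 3 lower (median -0.13), and in injured FAPs against ASCs 1 higher and 4 lower (median -1.12; 2 higher and 4 lower after quantile normalization, all genes 25.2% and 25.0%), where all genes had 23.4% and 23.8%, 24.9% and 27.7% and 25.0% and 25.8% called higher and lower. The 3 medians of the list were 0.86, -0.66 and -0.60 after quantile normalization, 0.73, -0.23 and -1.01 with a common 75th percentile and 0.38, -0.0037 and -0.42 with library totals. Agt, which encodes angiotensinogen, had 4748, 2718 and 4921 in ASCs, 347 and 336 in FAPs and 86.3, 43.4 and 53.4 in injured FAPs, higher in ASCs (3.54) and lower after injury (-2.52). Serpina3n rose after injury (1.32), and so did Serpinb1a, an inhibitor of neutrophil proteases (1.87), while Serpinf1, the gene of pigment epithelium-derived factor, fell (-1.54).

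Library totals and a common 75th percentile multiply each library by 1 factor, while quantile normalization moves genes by unequal amounts. With library totals the median log2 fold change of all genes was -0.56 in ASCs against FAPs, 0.079 in injured FAPs against FAPs and 0.71 in injured FAPs against ASCs, and with a common 75th percentile -0.20, -0.15 and 0.13. All genes then split into 1592 higher and 6323 lower in ASCs against FAPs with library totals and 2452 and 4142 with a common 75th percentile, instead of 3183 and 3233, and into 7377 and 1696 in injured FAPs against ASCs with library totals, instead of 3405 and 3504. Relative to the median of all genes with library totals, Serpine2 was at -0.48 in ASCs against FAPs, -0.63 in injured FAPs against FAPs and -0.22 in injured FAPs against ASCs, compared with -0.48, -0.63 and -0.23 with the deposited scaling. Plaur in injured FAPs against ASCs was at -0.48 relative to that median and Plau at 0.52. After quantile normalization the medians of all genes were -0.0099, -0.056 and 0.033, and relative to them Serpine2 was at -1.07, -0.77 and 0.22 in the same order, and in injured FAPs against ASCs Plaur was at -0.22 and Plau at 1.26, against -0.49 and 0.51 with the deposited scaling.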

How the data were processed

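RNA of 9 libraries was sequenced with paired ends. Per the deposited labels and the methods, the authors filtered reads, aligned them to mm10 with HISAT2, counted them with featureCounts of Subread and normalized with DESeq2; strand and multi-mapping settings are not given in the sources used here. The deposited signal is a normalized read count: 100% of values were whole reads (within 0.1) after multiplication by a size factor recovered for each library. The table held 26214 genes (6684 at 0 throughout), of which 24918 matched a GENCODE M21 symbol.

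Values were compared as log2(value + 1) with limma 3.58.1 in R 4.3.3 (3 groups in 1 fit, trend, 5 residual degrees of freedom, Benjamini-Hochberg over 13601 genes, those averaging 10 or more). On the recovered reads, edgeR 4.0.16 called 3051 genes higher and 3399 lower in ASCs against FAPs, and DESeq2 1.42.0 3293 and 3119. Other alternatives were the pseudocount, the filter, the scaling, the replicate block, only the 2 groups compared, the length, and each library left out. The workflow was tested on simulated data. Tables and plots used pandas 2.3.3, scipy 1.17.1 and matplotlib 3.10.9.

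Genes named are the 5 members and genes of the fixed lists called at least once with a mean of at least 100 (and Plg). Also named are, for each member, the 3 genes of highest Pearson r with a mean of at least 100. Anxa2, Plgrkt, Serpinb10, St14, Itgam, Fgg, Mmp13 and Serpina3g were added after their values were seen. Members and lists were chosen with earlier results of these data known.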

Additional observations from a re-analysis of the deposited data

How the results depend on the processing

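In both comparisons with FAPs, Plau, Plaur and Serpinb2 kept direction and call under the 20 alternatives each, and so did Plat in both comparisons with ASCs, but sizes moved: in ASCs against FAPs Plau was 0.76 and Plat 2.45 after quantile normalization and 0.90 and 2.60 with library totals, and a pseudocount of 8 gave Serpinb2 3.59 (ASCs) and 5.15 (injured FAPs). Quantile normalization gave Serpine2 -1.08 (ASCs against FAPs) and 0.25 (injured FAPs against ASCs), Plat -0.095 (injured FAPs against FAPs) and Plau 1.29 (injured FAPs against ASCs). A common 75th percentile gave -0.68, -0.052 and 0.65 for Serpine2 (ASCs against FAPs), Plat and Plau. Library totals gave Serpine2 -1.04, -0.55 and 0.49, Plau 1.23 and Plaur 0.23 (injured FAPs against ASCs), and changed the genes called to 1592 higher and 6323 lower for ASCs over FAPs and 7377 higher and 1696 lower for injured FAPs over ASCs. With the replicate block (libraries paired by number, which share only that number) Plat was -0.0035 after injury. In injured FAPs against ASCs, Serpinb2 lost its call with no filter (1.62, more genes being tested), edgeR (1.26) and DESeq2 (1.20), edgeR gave Plau 0.62, and the members called came to 1 with no filter and with DESeq2. Leaving out ASC 1 and injured FAP 2 together, chosen after seeing the data, gave Plau 0.75, Plaur 0.077 and Serpinb2 1.35. Leaving out each library gave 0.42 to 0.65 for Plau, -0.76 to -0.012 for Plaur, 1.10 to 2.40 for Serpinb2 and 1 to 2 members called in injured FAPs against ASCs, and -0.023 to 0.13 for Plat after injury; where a FAP library is left out, the lone FAP sample is assumed to vary like the other groups. Longest transcripts gave Plaur 6.85 (FAPs) and 61.5 (injured FAPs), and Plat 205, 33.5 and 37.9 and Serpine2 63.05, 129.5 and 88.6 in ASCs, FAPs and injured FAPs, by construction. Other than the filter and the lengths, the cause was not tested. Depth limits only Serpinb2 in FAPs (3 and 11 reads) and CD31+CD45+ cells (10 reads).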
